A study of Saccharomyces cerevisiae with 72 samples.

Results

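SRB2, ARP9, RFA2 and MAF1 are 4 intron-containing genes of budding yeast whose products act on transcription, chromatin and DNA replication. They were chosen by name, with every probe they have on a splicing-specific array. Each has 3 probes, so the set holds 12 of the 1457 named probes and 4 of the 982 named genes. None of the 12 was lost to a filter. The gene table of RefSeq assembly R64 gives their systematic names as YHR041C for SRB2 (also MED20), YMR033W for ARP9, YNL312W for RFA2 (also RPA2) and YDR005C for MAF1. Neither probe sequences nor positions were used here, so no sequence or coordinate is shown.

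SRB2 encodes a subunit of Mediator, the complex that links DNA-bound activators to RNA polymerase II. ARP9 encodes an actin-related protein shared by the chromatin remodellers SWI/SNF and RSC, which slide or evict nucleosomes. RFA2 encodes a subunit of replication protein A, the complex that coats single-stranded DNA in replication and repair, and MAF1 encodes the repressor of RNA polymerase III, the polymerase that makes tRNA. In budding yeast few genes carry an intron. An intron probe reads unspliced RNA, a junction probe reads spliced RNA, and an exon probe reads both. The intron minus exon index is the log2 ratio of a gene's intron probe minus that of its exon probe, and the junction minus exon index uses the junction probe in its place. Each ratio is relative to all RNA on the array, so a change of a gene's RNA per cell and a change of the total cannot be told apart.

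The series holds 72 two-colour arrays of total RNA, which form 36 pairs with exchanged dyes. In the gcn2 deletion, cells in 50 mM 3-amino-1,2,4-triazole (3-AT) were set against untreated cells of the same strain after 2, 4, 6, 10, 15 and 20 min. Wild type in 50 mM 3-AT was set against untreated wild type at the same times, and another course set the gcn2 deletion against wild type with both in 3-AT. 3-AT inhibits histidine synthesis, and GCN2 encodes the kinase that senses uncharged tRNA in starved cells. The prp8-1 strain, with a temperature-sensitive core spliceosome protein, was set against wild type at 37 C over the same 6 times. Its label adds YPD, a rich medium, and the wild-type label is silent on medium. Wild type in 10% ethanol was set against untreated wild type at 5, 10, 15, 20, 25 and 30 min. Deletions of XRN1, UPF1, SKI2, RRP6, RAI1 and RTT103, genes tied to RNA decay or to transcription termination, were each set against wild type in a medium labelled MIN. Every course has 6 pairs, and every deletion strain has 1 pair and so no replicate. No label says that time points came from separate cultures. The p-values and SE of a course therefore measure only the spread of its time points around a fitted line over time, a spread that may be technical. A steady change over time is not part of that spread. For the RFA2 exon in wild type in 3-AT, the SD over the 6 time points was 0.29 and the SE of the mean 0.050.

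In 6 strains the deleted gene stood between -4.35 and -2.37 log2, which sets the direction of their ratios as mutant over wild type. RTT103 has no probe, so the library labelled as its deletion was not checked. The 3-AT courses share a table with the gcn2 arrays. For ethanol the direction, treated over untreated, is not settled. Its basis is the labels together with the mutant strains that share the table. HSP104, a heat shock gene known to be induced by ethanol, stood at -1.56 in that course (lowest -2.19, highest -1.07). That sign is opposite to the labelled direction. Ethanol results are worded below in the labelled direction. With the sign turned, each ethanol value given here changes sign and each count of higher and lower trades places. The prp8-1 strain and its wild type also differed in mating-type genes, with MF(ALPHA)1 at -5.97 and MFA2 at 4.26, and the part of this strain difference in the results below was not tested. The few arrays limit the precision. Repeated spots of a member probe on an array had a median SD between 0.077 for the SRB2 exon and 0.36 for the RFA2 junction, and the median gap between the dye orientations of a pair lay between 0.069 for the ARP9 junction and 0.41 for the MAF1 junction.

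In prp8-1 at 37 C the intron signal of ARP9, MAF1 and RFA2 stood above wild type, that of RFA2 by less than the median intron probe, while that of SRB2 did not. These arrays were used to tell the intron position from the exon position, so intron and exon values of this course are a description with no test. Among 229 genes with 3 probe kinds, 218 (95.2%) followed their class of spacing on the slide. The ARP9 intron probe stood at 1.12, 1.57, 1.83, 1.94, 1.59 and 1.78 log2 from 2 to 20 min. MAF1 intron signal was 0.60, 1.03, 1.42, 1.45, 1.55 and 1.41 at those times. For the RFA2 intron the values were 0.57, 0.45, 0.74, 0.84, 0.88 and 1.04. All 3 stood above 0 at every time point, and each was higher at 20 min than at 2 min. Their means were 1.64 ± 0.29, 1.25 ± 0.36 and 0.75 ± 0.21 (SD, n = 6 time points), against a median of 1.10 over all 229 intron probes.

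The SRB2 intron probe differed from these. Its values were -0.12, -0.11, 0.08, -0.022, -0.33 and -0.33, with a mean of -0.14 ± 0.16 (SD, n = 6), the 17th lowest of the 229 intron probes. SRB2 exon signal was lower still, at -0.49 ± 0.15, so that its intron minus exon index stood at 0.35 ± 0.071 and above 0 at 6 of 6 time points. That index was the 28th lowest of 229, where the median was 1.28. The label of the SRB2 intron probe therefore rests mainly on its place on the slide. The indices of ARP9 and MAF1 were close to each other, at 2.04 ± 0.49 and 2.02 ± 0.49, and that of RFA2 was 0.70 ± 0.12. Exon signal of MAF1 stood at -0.77 ± 0.14 and that of ARP9 at -0.40 ± 0.22, while RFA2 exon signal lay close to 0 at 0.051 ± 0.13.

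Junction probes were not used to set the kinds and were tested in prp8-1 with limma, with adjustment over all 1457 probes. Of the 4 member junctions, 3 fell, 0 rose and 1 did not pass, beside 79.1% of all probes called, 39.9% higher and 39.2% lower. The SRB2 junction stood at -0.24, -0.40, -0.50, -0.64, -0.67 and -0.51. It was below 0 at each time point, with a mean of -0.49 ± 0.050 (SE, n = 6, adjusted p = 8.9e-05). The ARP9 junction stood at 0.029, -0.077, -0.13, -0.68, -0.47 and -0.67, near 0 early and lower from 10 min on. It fell by 0.33 on average (SE 0.063, adjusted p = 0.0022), with a slope of -0.39 per 10 min (adjusted p = 0.030). The MAF1 junction was at -0.15 ± 0.040 (SE, adjusted p = 0.010) and below 0 at 6 of 6 time points. RFA2 junction signal averaged -0.12 ± 0.059 and did not pass (adjusted p = 0.11). The calls for SRB2 and MAF1 depended on the dye: with prp8-1 RNA in Cy5 their junctions averaged 0.14 (adjusted p = 0.027) and 0.066 (adjusted p = 0.31), and with it in Cy3 they averaged -1.13 and -0.37. Relative to the exon, described without a test, the MAF1 junction stood higher, with an index of 0.62 ± 0.15 (SD, n = 6). That index was above 0 at 6 of 6 time points. It was -0.0066 ± 0.16 for SRB2, 0.068 ± 0.19 for ARP9 and -0.17 ± 0.18 for RFA2, beside a median of -0.0965 over all 229 genes. For SRB2 it was 0.377 in Cy5 and -0.39 in Cy3.

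**Figure D1:**
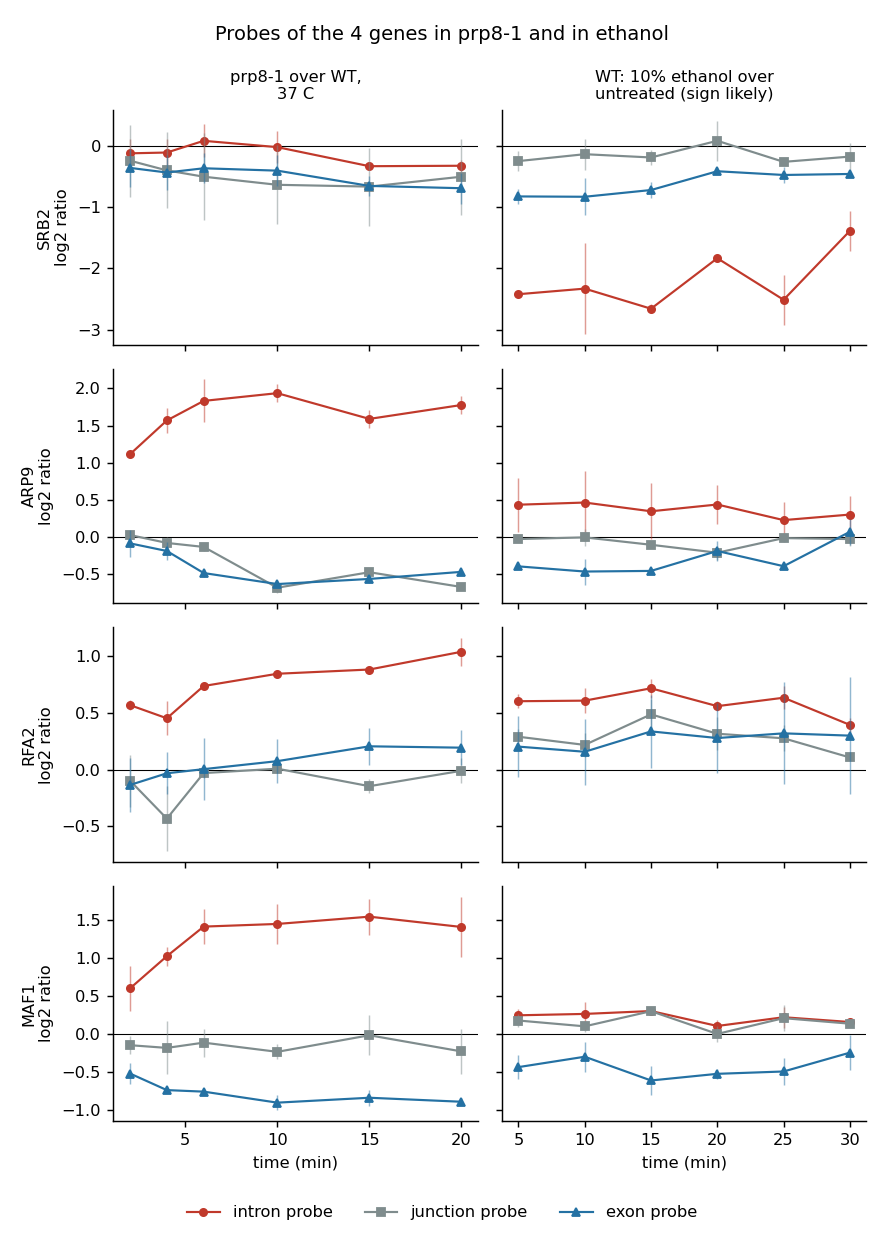
Log2 ratio (y axis) against time in min (x axis) for the intron (circles), junction (squares) and exon (triangles) probe of each gene, in prp8-1 over wild type at 37 C (left) and in 10% ethanol over untreated wild type (right). The ethanol direction is as labelled and is not settled. Points are means of a dye-swapped pair and vertical lines join its 2 arrays. ARP9, RFA2 and MAF1 introns stand above their exons in prp8-1, and the SRB2 intron stands between -2.66 and -1.39 in ethanol.

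Treatment with 3-AT was followed by lower exon signal of RFA2, MAF1 and SRB2 in both strains, while RFA2 and MAF1 intron signal did not pass the test in either strain. The SRB2 exon did not pass in either strain on the arrays with treated RNA in Cy5 alone. The intron minus exon index of RFA2 rose in both strains and held in each dye orientation. Leaving out the noisiest 10% of probes removed the RFA2 and MAF1 indices from the 3-AT courses, so that filter could not test them. The intron minus exon index of ARP9 fell in both strains, but with treated RNA in Cy5 alone it did not pass in either. In the gcn2 deletion, 2 of the 12 member probes rose, 6 fell and 4 did not pass, beside 57% of all probes called. In wild type, 0 rose, 8 fell and 4 did not pass, beside 64.2% of all probes called. For one direction, 29.4% of all probes rose and 27.6% fell in the gcn2 deletion, against 32.8% and 31.4% in wild type. The median over the 12 probes was -0.12 in the gcn2 deletion and -0.17 in wild type.

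RFA2 exon signal fell with time in wild type. It was -0.16, -0.15, -0.32, -0.43, -0.42 and -0.42 in the gcn2 deletion, against -0.062, -0.33, -0.58, -0.63, -0.77 and -0.82 in wild type. All 12 values were below 0, and from 4 min on those of wild type were the lower ones. The mean was -0.32 ± 0.039 in the gcn2 deletion (SE, n = 6, adjusted p = 8.9e-05) and -0.53 ± 0.050 in wild type (SE, n = 6, adjusted p = 0.00011). In wild type the slope was -0.37 per 10 min (adjusted p = 0.013), beside 31.4% of all probes with a called slope. RFA2 intron signal averaged 0.16 in both strains and did not pass in the gcn2 deletion (adjusted p = 0.054) or in wild type (adjusted p = 0.051). Without the 2 min point it passed in both, at 0.27 in the gcn2 deletion (adjusted p = 0.00070) and 0.23 in wild type (adjusted p = 0.0081), and with medians over spots it passed in both as well (adjusted p = 0.0265 and 0.042).

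RFA2's intron minus exon index was lower at 2 min than at any later time in each strain. It stood at -0.19, 0.36, 0.52, 0.58, 0.86 and 0.75 in the gcn2 deletion, against -0.12, 0.55, 0.64, 0.83, 1.23 and 1.01 in wild type. Only the 2 min value lay below 0 in either strain. The index rose by 0.48 ± 0.072 in the gcn2 deletion (SE, adjusted p = 0.00014, beside 62.9% of 229 indices called and 46.3% higher) and by 0.69 ± 0.084 in wild type (SE, adjusted p = 1.7e-05, beside 69% called and 57.6% higher). It was the 20th highest of 229 in the gcn2 deletion and the 14th highest in wild type. The slope was 0.44 per 10 min in the gcn2 deletion (adjusted p = 0.0086, beside 43.7% of index slopes called) and 0.56 in wild type (adjusted p = 0.012, beside 21.4%).

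The junction minus exon index of RFA2 climbed with time in both strains. Its junction probe alone had a slope of 0.286 per 10 min in the gcn2 deletion (adjusted p = 0.0126). In wild type that slope was 0.019 (adjusted p = 0.86), while the exon fell. The junction minus exon index was -0.37, -0.23, -0.059, 0.44, 0.27 and 0.45 in the gcn2 deletion, against 0.11, 0.10, 0.36, 0.48, 0.65 and 0.77 in wild type. At each of the 6 times the value of the gcn2 deletion was the lower one. The mean of 0.083 ± 0.064 in the gcn2 deletion did not pass (adjusted p = 0.34, beside 42.4% of junction indices called), and that of 0.41 ± 0.034 in wild type did (adjusted p = 0.00016, beside 48.9%). The slopes were 0.45 and 0.39 per 10 min, and both passed (adjusted p = 0.031 in the gcn2 deletion and 0.0086 in wild type), beside 21.4% and 6.55% of junction index slopes called. The junction probe averaged -0.23 in the gcn2 deletion (adjusted p = 0.0020) and -0.12 in wild type (adjusted p = 0.044). The wild-type call ended without the slope, with medians over spots, with centring and in Cy5 alone (adjusted p = 0.308). It also ended without the 4, 6, 10 or 15 min point. The call in the gcn2 deletion ended without the slope (adjusted p = 0.0656) and in Cy3 alone (adjusted p = 0.0999).

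MAF1, the RNA polymerase III repressor, had falling exon signal too. Its exon probe stood at -0.24, -0.10, -0.22, -0.14, -0.43 and -0.39 in the gcn2 deletion, against -0.16, -0.18, -0.26, -0.48, -0.59 and -0.60 in wild type. Every value was below 0 in both strains. The mean fell by 0.25 in the gcn2 deletion (SE 0.042, adjusted p = 0.00055) and by 0.38 in wild type (SE 0.032, adjusted p = 7.9e-05), where the slope was -0.28 per 10 min (adjusted p = 0.0066). MAF1 intron signal averaged -0.082 in the gcn2 deletion (adjusted p = 0.11) and -0.060 in wild type (adjusted p = 0.19). Its intron minus exon index went up, by 0.17 ± 0.060 in the gcn2 deletion (SE, adjusted p = 0.027) and by 0.32 ± 0.053 in wild type (SE, adjusted p = 0.00021). In the gcn2 deletion that call ended without the 6, 15 or 20 min point, with adjusted p between 0.0673 and 0.125, without the slope (adjusted p = 0.0821) and in Cy5 alone (0.116, adjusted p = 0.203). The junction minus exon index of MAF1 rose by 0.36 ± 0.064 in the gcn2 deletion (SE, adjusted p = 0.0039, beside 16.2% higher), and it was above 0 at 6 of 6 times. In wild type it averaged 0.17 ± 0.055 (adjusted p = 0.036) after values of -0.31 and -0.051 at 2 and 4 min, and the call ended without any 1 of the last 4 time points, with adjusted p between 0.057 and 0.22, without the slope (adjusted p = 0.242) and in Cy5 alone (0.0921, adjusted p = 0.473).

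SRB2, the Mediator gene, fell on all of its probes in both strains when both dye orientations were averaged, and 4 of these 6 calls were lost with treated RNA in Cy5 alone. The intron probe stood at -0.059, 0.038, -0.48, -0.29, -0.70 and -0.73 in the gcn2 deletion, against -0.077, -0.091, -0.08, -0.33, -0.25 and -0.20 in wild type. In the gcn2 deletion the 2 earliest points lay near 0 and the last 2 were the lowest. It averaged -0.37 ± 0.057 in the gcn2 deletion (SE, adjusted p = 0.00035), with a slope of -0.41 per 10 min (adjusted p = 0.0057, beside 45.1% of all probes with a called slope), and -0.17 ± 0.037 in wild type (SE, adjusted p = 0.0050). The exon and junction probes averaged -0.21 and -0.15 in the gcn2 deletion, and -0.16 and -0.21 in wild type. Those 4 means passed the test. In Cy5 alone the exon stood at -0.103 in the gcn2 deletion (adjusted p = 0.0704) and -0.0257 in wild type (adjusted p = 0.49), against -0.325 and -0.30 in Cy3 alone. The gcn2 deletion junction (-0.0928, adjusted p = 0.0649) and the wild-type intron (-0.0874, adjusted p = 0.151) did not pass in Cy5 alone either. SRB2's intron minus exon index was -0.15 ± 0.060 in the gcn2 deletion (SE, adjusted p = 0.0415) and -0.0084 ± 0.051 in wild type (adjusted p = 0.89). The call in the gcn2 deletion ended without the 6, 15 or 20 min point, with adjusted p between 0.093 and 0.25, without the slope (adjusted p = 0.202), with medians over spots (adjusted p = 0.0515) and in Cy3 alone (-0.0805, adjusted p = 0.323).

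ARP9, the remodeller subunit, had a lower intron signal in wild type. Its intron probe was -0.061, -0.18, -0.12, -0.06, -0.07 and 0.0016 in the gcn2 deletion, against -0.21, -0.13, -0.24, -0.31, -0.32 and -0.30 in wild type. The ranges of the strains overlapped, and wild type was the lower one at 5 of 6 times. The mean of -0.082 ± 0.035 in the gcn2 deletion did not pass (adjusted p = 0.074), and that of -0.25 ± 0.030 in wild type did (SE, adjusted p = 0.00030), as the 17th lowest of 229 intron probes. ARP9's intron minus exon index fell by 0.22 in the gcn2 deletion (SE 0.051, adjusted p = 0.0027) and by 0.22 in wild type (SE 0.051, adjusted p = 0.0019), where the median of all 229 indices was 0.088 in the gcn2 deletion and 0.19 in wild type. In Cy5 alone it was -0.176 in the gcn2 deletion (adjusted p = 0.0584) and -0.0941 in wild type (adjusted p = 0.227), against -0.27 and -0.353 in Cy3 alone. ARP9 exon and junction signal rose in the gcn2 deletion, by 0.14 ± 0.051 and 0.099 ± 0.038 (SE, adjusted p = 0.039 and 0.047). Both calls ended without the 10, 15 or 20 min point, without the slope (adjusted p = 0.101 and 0.29) and in Cy5 alone (adjusted p = 0.412 and 0.0633), that of the exon also without the 6 min point and that of the junction also in Cy3 alone (adjusted p = 0.0633). In wild type the exon averaged -0.027 (adjusted p = 0.51) and the junction 0.0045 (adjusted p = 0.89).

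**Figure D2:**
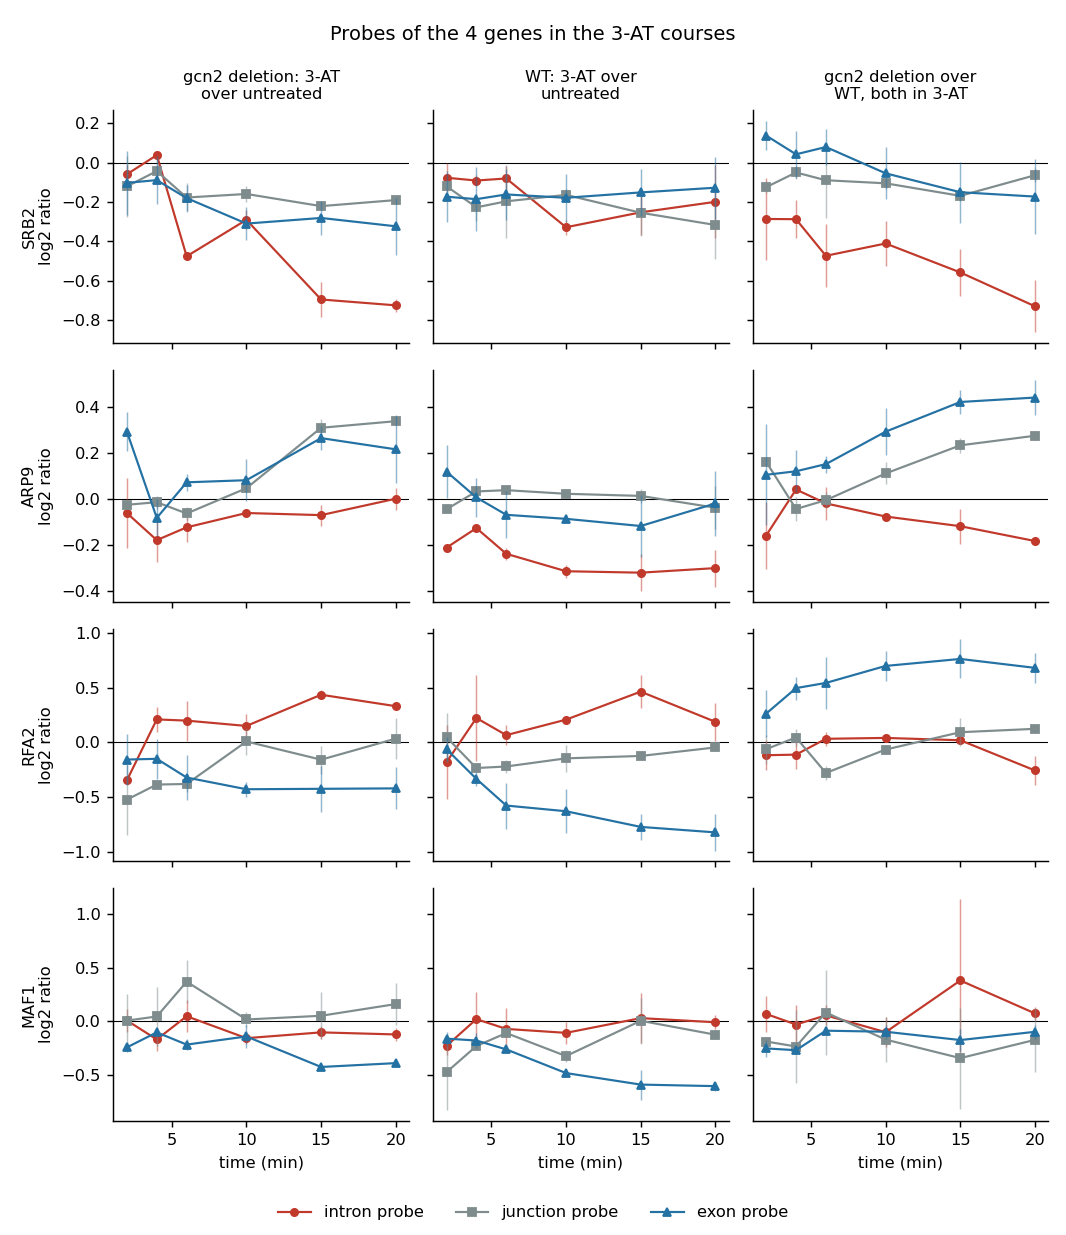
Log2 ratio (y axis) against time in min (x axis) for the intron (circles), junction (squares) and exon (triangles) probe of each gene, in 3-AT over untreated gcn2 deletion cells, 3-AT over untreated wild type, and gcn2 deletion over wild type with both in 3-AT. Points are means of a dye-swapped pair and vertical lines join its 2 arrays. RFA2 exon signal lies below 0 in both strains and between 0.26 and 0.76 on the direct arrays.

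Whether the response to 3-AT differed between the strains was tested in 1 fit over both courses, as the response of the gcn2 deletion minus that of wild type. Of the 12 member probes, 3 rose and 0 fell in this difference, beside 16.7% of all probes called. The RFA2 exon difference was 0.22 ± 0.065 (SE, adjusted p = 0.040), and the gcn2 deletion was higher at 5 of 6 times. For the ARP9 intron it was 0.17 ± 0.043 (SE, adjusted p = 0.021), again higher at 5 of 6 times. The MAF1 junction averaged 0.11 ± 0.14 in the gcn2 deletion and -0.21 ± 0.17 in wild type (SD, n = 6 each), a difference of 0.32 ± 0.078 (SE, adjusted p = 0.017) with the gcn2 deletion higher at 6 of 6 times. By limma 0 of the 4 intron minus exon differences passed, beside 13.1% of 229, and 0 had an unadjusted p under 0.05. They ranged from -0.21 for RFA2 (adjusted p = 0.22) to 0.0011 for ARP9 (adjusted p = 0.99). For junction minus exon 1 of 4 passed, beside 8.73% of 229, which was RFA2 at -0.33 ± 0.076 (SE, adjusted p = 0.030). On the direct arrays, described below, the RFA2 exon (0.57) and the RFA2 junction minus exon index (-0.60) had the sign of their differences. The MAF1 junction (-0.17) and the ARP9 intron (-0.085) had the opposite sign there.

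These differences rest on the time slope in the model. Without it, 0 of the 12 probes and 0 of 1457 probes on the array were called by limma, where 209 of the 1457 had an unadjusted p under 0.05. The adjusted p without the slope lay between 0.202 and 0.456 for the 4 called member differences. Leaving out 1 time point ended the RFA2 exon call at 5 of 6 times, the RFA2 junction minus exon call at 5, the ARP9 intron call at 4 and the MAF1 junction call at 1. Each call was also lost in 1 dye orientation: with treated RNA in Cy5 alone the RFA2 exon (0.178, adjusted p = 0.142) and the ARP9 intron (0.104, adjusted p = 0.202), and in Cy3 alone the RFA2 junction minus exon index (-0.239, adjusted p = 0.295) and the MAF1 junction (0.114, adjusted p = 0.386). With medians over spots the MAF1 junction difference was 0.216 (adjusted p = 0.0719) and that of the ARP9 intron 0.136 (adjusted p = 0.0872).

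On the direct arrays of the gcn2 deletion over wild type, both in 3-AT, RFA2 exon signal stood highest of its kind and SRB2 intron signal near the lowest. Their labels name the treated samples of the other courses, so they are not independent of them, and they hold any difference between the strains from before treatment. Of the 12 member probes 3 rose, 4 fell and 5 did not pass, beside 51.1% of all probes called, 26.8% higher and 24.3% lower. Of the 4 intron minus exon indices 1 rose and 3 fell, beside 42.8% of 229 called and 21% lower, and of the 4 junction minus exon indices 2 fell, beside 33.2% called and 16.2% lower. RFA2 exon signal was 0.26, 0.50, 0.54, 0.70, 0.76 and 0.68. It was above 0 at every time, with a mean of 0.57 ± 0.043 (SE, n = 6, adjusted p = 2.0e-05), the highest of the 229 exon probes. RFA2 intron and junction signal lay near 0, at -0.065 (adjusted p = 0.26) and -0.023 (adjusted p = 0.70). The intron minus exon index of RFA2 was -0.38, -0.61, -0.51, -0.66, -0.74 and -0.94. It averaged -0.64 ± 0.048 (SE, adjusted p = 1.5e-08), the second lowest of 229, and the junction minus exon index averaged -0.60 ± 0.065 (SE, adjusted p = 0.00091), the lowest of 229. No member junction index had a called slope there, beside 2.62% of all.

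SRB2 intron signal on the direct arrays was -0.29, -0.29, -0.47, -0.41, -0.56 and -0.73. Each value was below 0 and the last was the lowest. The mean of -0.46 ± 0.032 (SE, adjusted p = 1.5e-05) was the second lowest of 229 intron probes, beside a median of -0.021. SRB2 exon signal averaged -0.020 (adjusted p = 0.60), with dye orientations of opposite sign, at 0.11 with the gcn2 deletion in Cy5 (adjusted p = 0.0080) and -0.15 with it in Cy3 (adjusted p = 0.015). SRB2's intron minus exon index was -0.44 ± 0.050 (SE, adjusted p = 1.7e-06), below 0 at 6 of 6 times.

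ARP9 exon signal was 0.11, 0.12, 0.15, 0.29, 0.42 and 0.44. It rose by 0.26 ± 0.029 (SE, adjusted p = 0.00019) with a slope of 0.21 per 10 min (adjusted p = 0.011, beside 27.9% of slopes called) and its junction by 0.12 ± 0.038 (SE, adjusted p = 0.025). The junction call ended without the 10, 15 or 20 min point, without the slope (adjusted p = 0.0947) and in Cy3 alone (adjusted p = 0.127), and ARP9 intron signal averaged -0.085 (adjusted p = 0.072). ARP9's intron minus exon index fell by 0.34 (SE 0.050, adjusted p = 2.6e-05) and was below 0 at 6 of 6 times. Its junction minus exon index was -0.13 ± 0.036 (SE, adjusted p = 0.027). That call ended in Cy5 alone (-0.0199, adjusted p = 0.77) and without the 4, 10, 15 or 20 min point. MAF1 went the other way: its intron minus exon index rose by 0.24 ± 0.062 (SE, adjusted p = 0.0045), while exon signal fell by 0.16 (SE 0.034, adjusted p = 0.0042). With the gcn2 deletion in Cy5 alone the MAF1 index was 0.016 and did not pass (adjusted p = 0.83). The MAF1 junction stood at -0.17 ± 0.050 on the direct arrays (SE, adjusted p = 0.020). It did not pass with medians over spots (-0.0842, adjusted p = 0.141), in Cy5 alone (-0.107, adjusted p = 0.525), in Cy3 alone (-0.235, adjusted p = 0.137) or without the 4 or 15 min point (adjusted p = 0.0556 and 0.0642).

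**Figure D3:**
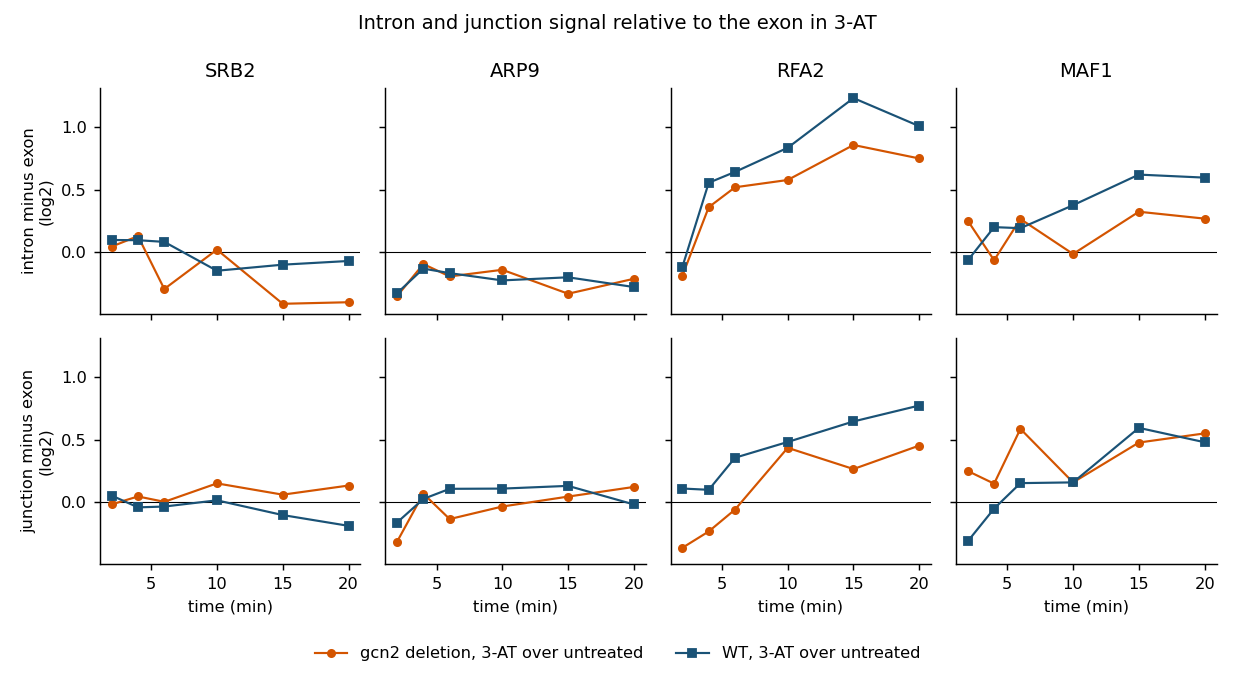
Intron minus exon index (top) and junction minus exon index (bottom), in log2 units, against time in min for each gene in 3-AT over untreated cells, for the gcn2 deletion (orange circles) and wild type (blue squares). Points are means of a dye-swapped pair. RFA2 indices climb in both strains, with wild type above the gcn2 deletion at each time, and ARP9 intron minus exon lies below 0 in both.

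In 10% ethanol the SRB2 intron probe stood lowest of all 229 intron probes. Its values were -2.42, -2.33, -2.66, -1.83, -2.51 and -1.39 from 5 to 30 min. The highest of them was still below -1, and the mean was -2.19 ± 0.13 (SE, n = 6, adjusted p = 7.1e-07), beside a median intron value of 0.21. Of the 12 member probes 6 rose, 5 fell and 1 did not pass, beside 81.5% of all probes called, 41.9% higher and 39.6% lower. No member slope passed, beside 0.137% of all probes with a called slope. All of these directions carry the limit on the sign of the ethanol ratios given above.

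SRB2 exon signal was -0.83, -0.83, -0.72, -0.42, -0.48 and -0.46. It fell by 0.62 (SE 0.047, adjusted p = 3.4e-06), less than its intron, and the junction averaged -0.16 ± 0.054 (SE, adjusted p = 0.024). The junction value was 0.028 with treated RNA in Cy5 and -0.34 with it in Cy3, and its call ended without the 5, 15, 25 or 30 min point (adjusted p from 0.057 to 0.078). The intron minus exon index of SRB2 was -1.57 ± 0.11 (SE, adjusted p = 3.5e-09), the 3rd lowest of 229, while its junction minus exon index was 0.47 ± 0.057 (SE, adjusted p = 1.6e-05). The junction and intron of this gene thus lay on opposite sides of its exon at each of the 6 times.

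The other 3 genes had intron signal above exon signal in ethanol. RFA2 intron signal was 0.60, 0.61, 0.72, 0.56, 0.63 and 0.39, with a mean of 0.58 ± 0.047 (SE, adjusted p = 4.9e-06), the 19th highest of 229. ARP9 intron signal was 0.44, 0.47, 0.35, 0.44, 0.23 and 0.30, and its exon signal -0.39, -0.46, -0.45, -0.19, -0.39 and 0.073. They did not overlap. The ARP9 intron rose by 0.37 ± 0.043 (SE, adjusted p = 4.7e-05) and its exon fell by 0.30 (SE 0.059, adjusted p = 0.0012), which gave an intron minus exon index of 0.67 ± 0.064 (SE, adjusted p = 1.4e-07, beside 78.2% of indices called, 46.3% higher and 31.9% lower). The dye mattered here: the ARP9 intron averaged 0.69 with treated RNA in Cy5 and 0.052 with it in Cy3 (adjusted p = 0.35), and the ARP9 exon did not pass in Cy5 alone (-0.215, adjusted p = 0.0503).

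MAF1 exon signal in ethanol was -0.43, -0.30, -0.61, -0.52, -0.49 and -0.24. It fell by 0.43 (SE 0.057, adjusted p = 0.00011), while its intron rose by 0.22 ± 0.042 (SE, adjusted p = 0.0011) and its junction by 0.16 ± 0.049 (SE, adjusted p = 0.015). The junction call ended in Cy5 alone (0.128, adjusted p = 0.0918) and without the 15 min point (0.128, adjusted p = 0.058). Intron and junction thus stood above the exon at 6 of 6 times, with indices of 0.65 ± 0.069 (SE, adjusted p = 4.6e-07) and 0.59 ± 0.074 (SE, adjusted p = 2.1e-05, beside 77.7% of junction indices called and 48.5% higher). RFA2 exon signal averaged 0.27 ± 0.041 (SE, adjusted p = 0.00031), but it was -0.095 with treated RNA in Cy5 (adjusted p = 0.20) and 0.63 with it in Cy3. The RFA2 intron minus exon index of 0.32 ± 0.060 (SE, adjusted p = 0.00017) was accordingly 0.66 in the first orientation and -0.022 in the second (adjusted p = 0.81). Its junction minus exon index was 0.47 and -0.44, and both passed alone with opposite signs (adjusted p = 0.00036 and 0.00014).

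**Figure D4:**
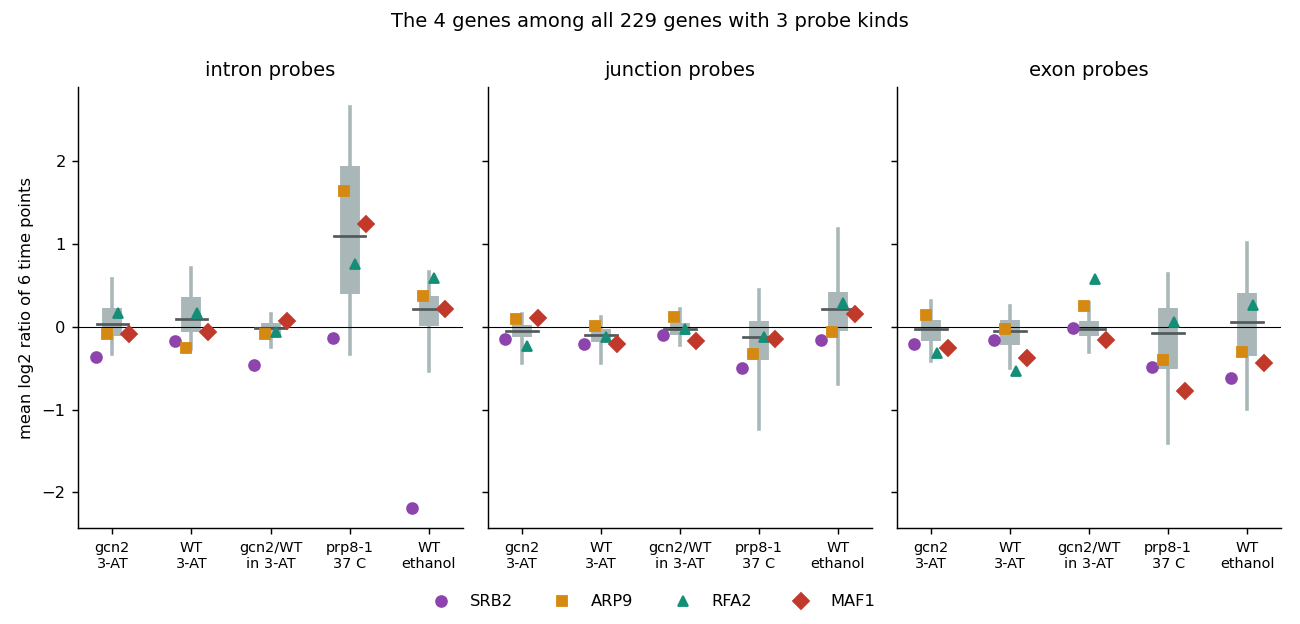
Mean log2 ratio over the 6 time points (y axis) of SRB2 (circles), ARP9 (squares), RFA2 (triangles) and MAF1 (diamonds) in each course (x axis), by probe kind. Grey bars span the 25th to 75th percentile of all 229 probes of that kind, thin lines the 5th to 95th, and dark marks the median. The SRB2 intron in ethanol, at -2.19, and the RFA2 exon on the direct gcn2 arrays, at 0.57, lie outside the thin lines.

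The deletion strains have 1 pair of arrays each, so their values come without a test, and a value is called past when its size reaches 0.5 log2. In the upf1 deletion, which lacks a helicase of nonsense-mediated decay, the MAF1 exon probe stood at 1.11. Both arrays of the pair showed it, at 1.24 with mutant RNA in Cy5 and 0.98 with it in Cy3, and 2.81% of all probes lay as far from 0. MAF1 intron signal in that strain was 0.18 and its junction 0.0044, which left the intron minus exon index at -0.94 and the junction minus exon index at -1.11. These intron and junction means join arrays of opposite sign. With mutant RNA in Cy5 and in Cy3 the intron was -0.053 and 0.40, and the junction 0.30 and -0.29. The indices were below 0 on each array, at -1.30 and -0.58 for the intron and -0.94 and -1.275 for the junction. The MAF1 exon was the only 1 of the 12 member probes past 0.5 there, beside 17.2% of all probes. MAF1 exon signal was also 0.42 in the ski2 deletion, under the threshold and the highest of the 229 exon probes in that strain, and 0.46 in the xrn1 deletion, 0.27 in the rtt103 deletion, 0.25 in the rai1 deletion and -0.38 in the rrp6 deletion.

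In the xrn1 deletion, which lacks the cytoplasmic 5' to 3' exonuclease, 3 of 12 member probes were past 0.5, beside 38.8% of all probes. The SRB2 intron stood at -1.20, with -1.19 and -1.21 on its 2 arrays, the fifth lowest of 229 intron probes. SRB2 junction signal was -0.69 there, but -0.12 with mutant RNA in Cy5 and -1.26 with it in Cy3. The ARP9 junction was higher, at 0.63, with 0.57 and 0.68 on the 2 arrays, and 28.3% of all probes lay as far from 0. ARP9 exon signal was 0.39 and its intron -0.24 in the same strain, for an intron minus exon index of -0.64. RFA2 had values of 0.082, 0.00027 and 0.0036 for intron, junction and exon.

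In the rai1 deletion, which lacks a partner of the nuclear exonuclease Rat1, the SRB2 intron was -0.64 and the RFA2 exon 0.64, so 2 of 12 probes were past 0.5, beside 11.7% of all probes. The RFA2 exon was 0.48 and 0.80 on the 2 arrays, and RFA2 intron and junction signal was -0.13 and 0.0010. The SRB2 intron was -0.42 and -0.86 on its 2 arrays. For each the array with mutant RNA in Cy5 alone lay short of the threshold. No member probe was past 0.5 in the rrp6 deletion (12.5% of all probes), the rtt103 deletion (4.39%) or the ski2 deletion (4.87%). In the rrp6 deletion, which lacks a nuclear exosome exonuclease, SRB2 intron signal was -0.40 and its exon 0.24, and the intron minus exon index of -0.65 was the fourth lowest of 229.

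**Figure D5:**
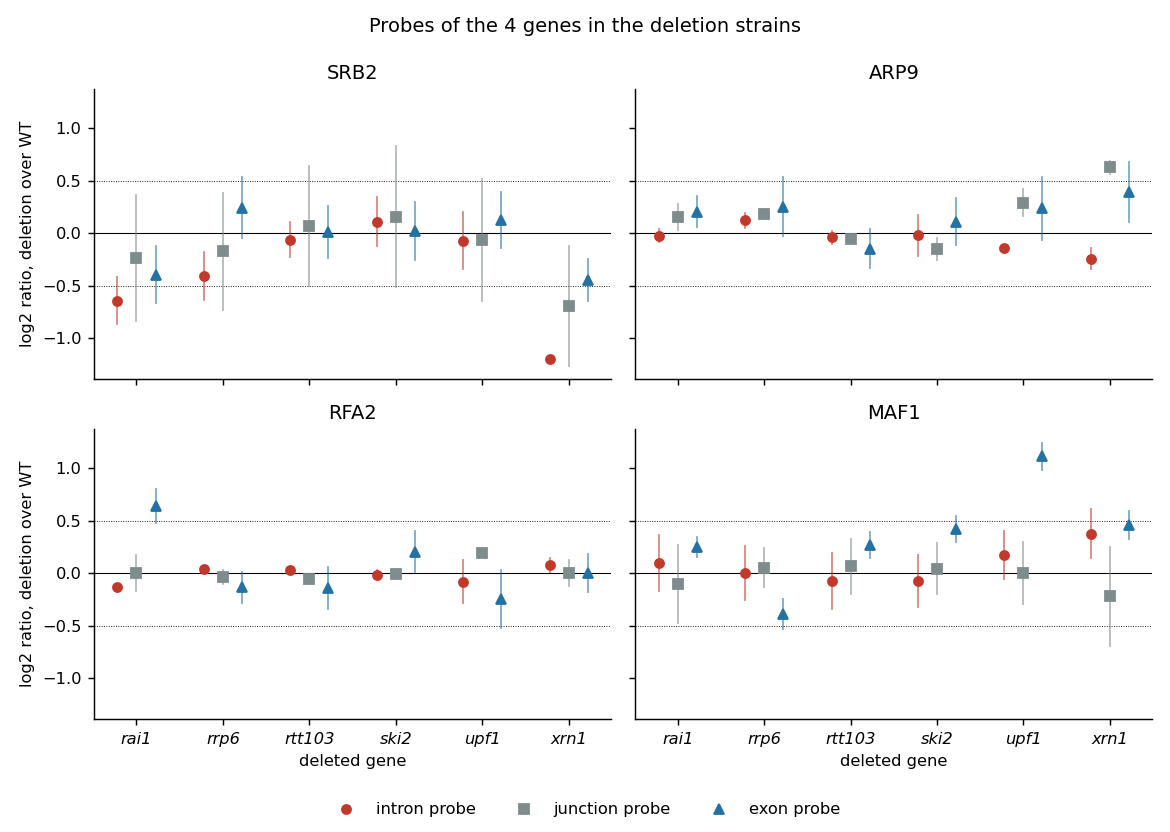
Log2 ratio of each deletion strain over wild type (y axis) by deleted gene (x axis) for the intron (circles), junction (squares) and exon (triangles) probes. Points are the mean of the pair, vertical lines join its 2 arrays, and dotted lines mark 0.5 and -0.5. The MAF1 exon in upf1 stands at 1.11 and the SRB2 intron in xrn1 at -1.20, while long lines mark probes such as the SRB2 junction whose value depended on the dye.

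Genes of the same pathways were taken from lists by symbol, with the level of a gene being its exon probe or its only probe. Of the list of other intron-containing genes of transcription, chromatin, replication and repair, 12 of 17 were on the array. In 3-AT, 1 rose and 6 fell in the gcn2 deletion (median -0.10), and 2 rose and 5 fell in wild type (median -0.027). Over all 976 levels 61.1% were called in the gcn2 deletion and 66.2% in wild type. The intron minus exon indices of the listed genes split as 4 higher and 2 lower in the gcn2 deletion and 6 higher and 2 lower in wild type. Their called share was 50% and 66.7%, beside 62.9% and 69% of all 229 indices. TFC3, a subunit of the RNA polymerase III factor TFIIIC, had the highest called index of the list in wild type, at 0.46 ± 0.053 (SE, adjusted p = 1.2e-05), and RAD14, a gene of nucleotide excision repair, the lowest, at -0.21 ± 0.052 (SE, adjusted p = 0.0037). In ethanol 6 of these indices rose and 2 fell, from 1.02 for UBC13 to -0.59 for GCR1, beside -1.57 for SRB2. The called share there was 66.7%, beside 78.2% of all 229 indices.

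Among RNA polymerase III and its factors, 8 of 22 were on the array. In 3-AT they split as 4 higher and 2 lower in the gcn2 deletion, and 3 higher and 4 lower in wild type, from RPC19 at 0.54 in the gcn2 deletion and 0.66 in wild type to SPT15, the TATA-binding protein gene, at -0.70 and -0.52. The called share of this list was 75% in the gcn2 deletion and 87.5% in wild type, beside 61.1% and 66.2% of all levels. RNA polymerase III transcripts, nearly all tRNA, had 40 levels. In the gcn2 deletion 1 rose and 24 fell in 3-AT (median -0.175), and 2 rose and 23 fell in wild type, with a median of -0.17. Their called share in either direction was 62.5% in each strain, near the 61.1% and 66.2% of all levels, but the directions were not split alike. Over all 976 levels 321 rose and 275 fell in the gcn2 deletion, and 347 rose and 299 fell in wild type. On the direct arrays 0 rose and 31 fell (median -0.21), beside 58.4% of levels called, 334 higher and 236 lower (median 0.0265). In ethanol 26 rose and 11 fell (median 0.78), beside 81.1% called, 305 higher and 487 lower (median -0.122). In prp8-1 1 rose and 35 fell (median -0.41), beside 78.1% called, 332 higher and 430 lower (median -0.053). Near-identical tRNA genes can share a probe's signal.

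Of Mediator and RNA polymerase II genes 13 of 37 were measured, and in 3-AT 4 rose and 5 fell in the gcn2 deletion, against 5 higher and 4 lower in wild type, beside 61.1% and 66.2% of all levels called. SUA7, which encodes TFIIB, was at 0.41 in wild type, and its response was lower in the gcn2 deletion by 0.35 (SE 0.048, adjusted p = 0.00088). That call, too, ended without the time slope, where 0 of 1457 probes were called in the difference. TFG2, a TFIIF subunit gene, was the lowest called in wild type at -0.43. Of chromatin remodelling genes 7 of 36 were measured: 0 rose and 5 fell in the gcn2 deletion, and 0 rose and 4 fell in wild type. Over all 976 levels 275 fell in the gcn2 deletion and 299 in wild type. In either direction 71.4% and 57.1% of the list were called, beside 61.1% and 66.2% of all levels. NHP6A, an HMG-box protein gene, was the lowest in wild type at -0.41. SWR1, a remodeller ATPase gene, was the lowest of the list in prp8-1 at -2.33 ± 0.051 (SE, adjusted p = 1.5e-07).

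DNA replication genes had 10 of 29 members on the array. On the direct arrays of the gcn2 deletion over wild type 7 rose and 0 fell, with a median of 0.22, beside 58.4% of levels called and a median of 0.0265 over all levels. MCM5, a subunit of the replicative helicase, was the highest, at 0.50 ± 0.047 (SE, adjusted p = 6.8e-05), near the 0.57 of the RFA2 exon. Its response to 3-AT was also higher in the gcn2 deletion, by 0.38 ± 0.062 (SE, adjusted p = 0.0022), a call that ended without the time slope. In ethanol 1 of the 10 rose and 8 fell, with a median of -0.43, beside 81.1% of all levels called and 487 of 976 lower, with a median of -0.12. RFC3, a clamp loader subunit, was the 1 that rose, at 0.35, and MCM5 was the lowest at -0.82.

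The genes whose values were most like each member were found by Pearson correlation. They are given as a description, since many pairs are time points of the same course and not labelled as separate cultures. Because the ethanol direction is not settled, the 3 nearest genes were also found with the ethanol sign turned and with the 6 ethanol pairs left out, both chosen after seeing the data. Over the 36 pairs the level of SRB2 was closest to those of SUP61 (r = 0.845), MEK1 (0.819) and DID4 (0.818). SUP61 alone stayed among the 3 nearest with the sign turned, and none of them did without ethanol, where their r was 0.79, 0.735 and 0.777. That of ARP9 was closest to ARL3 (0.83), SYF2 (0.813) and UBC4 (0.794), and that of RFA2 to TFG2 (0.773), UFD1 (0.736) and PRE3 (0.731). For each of these members, too, 1 of the 3 stayed with the sign turned and 0 without ethanol. Without ethanol the r of those 3 genes still lay between 0.746 and 0.85 for ARP9 and between 0.734 and 0.77 for RFA2. The level of MAF1 was closest to REC114 (0.869), PIG1 (0.866) and HAP5 (0.857), and REC114 stayed in both alternatives, at 0.875 with the sign turned and 0.901 over the 30 pairs without ethanol. Among the 4 genes themselves, SRB2, ARP9 and MAF1 had r between 0.465 and 0.638 with each other, and between 0.493 and 0.623 without ethanol. RFA2 had r between -0.137 and 0.102 with them, and between 0.0222 and 0.215 without ethanol.

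By the intron minus exon index over the 30 pairs other than prp8-1, SRB2 was closest to RPL42B (r = 0.918), DCN1 (0.905) and RPL22A (0.865), of which DCN1 stayed among the 3 nearest in both alternatives. ARP9 was closest to UBC4 (0.949), NCE101 (0.925) and TEF4 (0.906), of which UBC4 stayed in both, at 0.672 over the 24 pairs without ethanol. RFA2 was closest to PRE3 (0.847), YSC84 (0.808) and RPL36B (0.802), and none of these stayed among the 3 nearest without ethanol. Their r was then 0.856, 0.823 and 0.824, at ranks 4, 7 and 6, so other genes came closer while these r did not drop. MAF1 was closest to REC114 (0.844), ASC1 (0.795) and PAL2 (0.772), and REC114 stayed in both. The r between the indices of SRB2 and ARP9 was -0.771, and -0.598 with the ethanol sign turned, but 0.473 without ethanol, so its sign rests on those 6 pairs. Between SRB2 and MAF1 it was -0.60, -0.717 with the sign turned and -0.202 without ethanol.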

How the data were processed

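Total RNA was extracted with acid phenol and copied with aminoallyl-dUTP, per the labels' protocols. The authors deposited 1 log ratio per spot, taken here as log2; the base, background correction, normalization and spot filter are not given here by labels or headers, and another base would rescale sizes and leave the tests as they are. Array medians lay between -0.036 and 0.035. Both arrays of a pair already ran the same way, so no sign was changed. The 6 or 4 spots of a probe were averaged, then both arrays of a pair. The platform table names 1457 of 1536 probes, each with 1 gene, and RefSeq R64 was used for names only. The sources used here do not give probe kinds, which were set from slide spacing in 4 classes and from what stood higher in prp8-1.

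Each course was fitted with limma 3.58.1 in R 4.3.3 (lmFit, eBayes) with a mean and a slope over centred time, and Benjamini-Hochberg adjustment over all 1457 probes, or over 229 indices, at 0.05. The tables, which hold 9216 and 6144 spots, were fitted apart. Nuclear tRNA genes of the lists were found by annotated type, since the plan's symbols are not those of the annotation. The 4 genes, the lists and the tests were chosen with earlier results of these data known. Named besides the 4 genes are the 3 nearest genes by correlation and the highest and lowest called gene of each list. HSP104, MF(ALPHA)1 and MFA2 were named after their values were seen. Alternatives were no slope, 1 dye orientation, centring, median spots, a noise filter, robust eBayes, a replicate block and leaving out each time point. Turning the ethanol sign and leaving out the ethanol pairs, for the nearest genes, were added after seeing the data.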

Additional observations from a re-analysis of the deposited data

Results flagged for a closer look

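In 5 of 100 course series of a member, 1 time point stood apart from the other 5 by Dixon's criterion, which chance meets in about 1 of 20 series. RFA2 intron signal in the 3-AT course of the gcn2 deletion was -0.345 at 2 min, where the other times lay between 0.151 and 0.435. MAF1 intron signal on the direct gcn2 arrays was 0.381 at 15 min, against -0.1 to 0.0743 at the others. The ARP9 junction minus exon index on those arrays was 0.0562 at 2 min, and the others lay between -0.188 and -0.156. The SRB2 junction in ethanol was 0.081 at 20 min, beside -0.263 to -0.138. The RFA2 junction in prp8-1 was -0.431 at 4 min, beside -0.146 to 0.00786.

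The response to 3-AT differed between the gcn2 deletion and wild type, by the test of the difference itself, for the ARP9 intron (0.169), the RFA2 exon (0.216), the MAF1 junction (0.318) and the RFA2 junction minus exon index (-0.329). Each of the 4 calls ended without the time slope and in 1 of the dye orientations alone. On the direct arrays the means of the ARP9 intron (-0.085) and the MAF1 junction (-0.17) had the opposite sign.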

How the results depend on the processing

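Of 104 tested member results, 64 were called. Leaving out the time slope ended 12 calls, Cy5 alone (the arrays with treated or mutant RNA in Cy5) ended 24 and gained 7, Cy3 alone ended 9 and gained 5, medians over spots ended 5 and gained 2, and centring ended 1 and gained 1. Robust eBayes changed none of the 84 it was run on. Leaving out 1 time point ended between 2 and 14 calls, and 17 of the 64 ended without at least 1 time point.

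The sign turned in Cy5 alone for the SRB2 exon on the direct gcn2 arrays (0.108), the SRB2 junction (0.0275) and RFA2 exon (-0.095) in ethanol, and the SRB2 (0.142) and MAF1 (0.0663) junctions in prp8-1. In Cy3 alone it turned for the RFA2 intron minus exon (-0.0216) and junction minus exon (-0.437) indices in ethanol. The cause was not tested.

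Without the slope, member calls in the gcn2 deletion in 3-AT numbered 5 probes and 2 intron minus exon indices, with 472 probes and 84 intron indices over the array. Wild type kept a count of 1 member junction index. The direct arrays had 485 probes and 61 intron indices. The difference between the courses had 0 member probes, 0 member junction indices, 0 probes over the array (209 at an unadjusted p under 0.05, limma), 0 intron indices (32 unadjusted) and 2 junction indices.

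In Cy5 alone there were 5 called member probes in wild type in 3-AT, 2 member intron indices in the gcn2 deletion and 7 member probes in ethanol. For the difference there were 1 member probe, 6 intron indices and 8 junction indices. In Cy3 alone the gcn2 deletion had 2 member junction indices, and the difference had 0 member junction indices, 128 probes, 6 intron indices and 0 junction indices (40 unadjusted, limma). With medians over spots the difference had 1 member probe. Without the noisiest 10% of probes, which removes members by construction, called member intron indices numbered 2 in the gcn2 deletion, 1 in wild type, 2 on the direct arrays and 2 in ethanol. Member junction indices numbered 0 in both 3-AT courses, and intron indices over all genes 91 in the gcn2 deletion and 105 in wild type. In the 3-AT courses the RFA2 and MAF1 indices were the ones removed, so they were not tested under this filter.

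Member probes past 0.5 on the Cy5 and the Cy3 array alone numbered 0 and 4 in rai1, 1 and 4 in rrp6, 2 and 1 in ski2 and 3 and 3 in upf1. They numbered 1 in rtt103 on the Cy5 array and 7 in xrn1 on the Cy3 array.

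Leaving out 1 time point gave, for the difference, 0 to 5 member probes, 0 to 1 member junction indices, 66 to 357 probes, 5 to 40 intron indices and 0 to 16 junction indices. It gave 2 to 4 member intron indices in the gcn2 deletion, 1 to 2 member junction indices in wild type, and 4 to 7 member probes, 1 to 2 member junction indices and 49 to 80 junction indices on the direct arrays.

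With time point as a replicate block, the difference had 1 called member intron index (RFA2, adjusted p = 0.0494) and 11 junction indices over all genes, and the ARP9 intron call ended (adjusted p = 0.0567). Deviations from the course means at equal times had r between 0.0871 and 0.561, not all above 0.1, so the pairing was not taken as given.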
